A study of Homo sapiens with 14 samples.

Results

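The set described here is the transcription machinery that reads out beta-catenin: the histone acetyltransferases CBP (gene CREBBP) and p300 (EP300), beta-catenin itself (CTNNB1), its DNA-binding partners of the TCF family (TCF7L2, TCF7L1 and TCF7), the cofactors BCL9 and PYGO2, and the acetyltransferases KAT2A and KAT2B. Its members were taken by gene name, as every array probe annotated to 1 of these 10 genes, and each probe was kept on its own. This gave 12 probes of the non-normalized table, for 8 of the 10 genes. That table holds 47323 probes, but the annotation used here named genes only among the 22579 that the authors kept in a second table. CTNNB1 had 4 probes, CREBBP had 2 and each of the other 6 genes had 1. It named no probe for TCF7L1 or TCF7, which were not analysed here. Probes outside the second table had no gene name, so probes of the 10 genes may be missing. A probe was tested where its detection p-value, the share of negative control signals on the same array that were as bright, was below 0.05 on at least 3 of the 14 arrays. Of the 12 probes, 11 passed, among 22158 of all probes.

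Beta-catenin joins cadherins to the cytoskeleton at the cell membrane and acts in the nucleus as a coactivator. In cells without a Wnt signal, a complex of AXIN, APC and kinases marks free beta-catenin for destruction. When it accumulates it binds TCF and LEF proteins on DNA, is joined there by BCL9 and PYGO2, and recruits CBP or p300, which acetylate histones. ICG-001 is a small molecule known as a ligand of CBP that blocks its contact with beta-catenin and does not bind p300.

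Expression was measured in Mel202, a line from a uveal melanoma, the melanoma of the pigmented layer of the eye. Per the labels, it came from a primary tumour that had been irradiated and had recurred locally, and it carries Q209L and R210K mutations of the G protein gene GNAQ with unmutated BRAF, so all groups are 1 line and share these alleles. The groups were ICG-001 at 3 µM for 24 h (4 arrays), DMSO for 24 h (3 arrays), ICG-001 at 3 µM for 48 h (4 arrays) and DMSO for 48 h (3 arrays), where DMSO is the solvent of the compound. Arrays whose titles share a number were averaged, which left n = 3 for ICG-001 and n = 2 for DMSO at each time. The labels do not say that replicates are separate cultures, so a p-value here covers the spread among these samples alone, and that spread may be technical.

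Median signals were 120 to 126.8 on ICG-001 arrays and 126.9 to 134.9 on DMSO arrays at 24 h, and 113.1 to 129.3 on ICG-001 arrays and 131.1 to 139.1 on DMSO arrays at 48 h. Arrays detected 17619 to 20124 probes at p below 0.05. ICG-001 and DMSO arrays lay apart on principal component 1 (38.5% of the variance), and the 4 arrays titled with a final b, 1 in each group, lay apart on component 2 (21.4%). The label of the line was borne out by melanocyte genes: PMEL, TYRP1, TYR, MLANA, SOX10, EDNRB and MITF each had at least 1 probe detected on all 14 arrays, with a signal of 15010 to 24000 for PMEL. A second MITF probe was detected on 7 arrays and 1 EDNRB probe on 2, and the KIT probes on 12 and 13. Among markers of other cell types, DCN (fibroblast) and KDR (endothelium) were detected on 0 arrays, while LUM, EMCN, CD68, BEST1 and CDH1 each had a probe detected on 14. Many listed markers had no named probe and could not be looked up. A probe was named for 3 of 6 fibroblast, 2 of 5 endothelial, 2 of 5 immune, 4 of 5 retinal pigment epithelium and 1 of 5 epithelial markers. LUM was 3.55-fold lower at 24 h and 4.66-fold lower at 48 h in ICG-001 cells (adjusted p = 0.000201 and 4.31e-05), and 1 of 2 tested fibroblast markers was called. Of 8 tested melanocyte genes, 1 was called higher (KIT) and 2 lower (EDNRB and SOX10) at each time. Of 2 tested immune markers CD68 was lower at both times, of 4 of retinal pigment epithelium TTR and BEST1 were higher at 24 h and BEST1 at 48 h, CDH1 of epithelium was lower at 24 h, and EMCN of endothelium was not called. The part of these markers in the results below was not tested. In RNA from whole cultures, fewer cells that express a gene and less RNA per cell cannot be told apart.

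The sequence before the start site is shown for the 4 genes whose results the text turns on. They are the named target of ICG-001, its paralogue, beta-catenin, and KAT2A, an acetyltransferase called higher at 48 h. Each is the 250 bases upstream of a RefSeq start site (GRCh38.p14), 5′ to 3′ on the gene's strand. The windows are CREBBP at chr16:3880714-3880963 (minus strand, the farther upstream of 2 windows listed for it), EP300 at chr22:41092342-41092591 (plus), CTNNB1 at chr3:41199255-41199504 (plus) and KAT2A at chr17:42121368-42121617 (minus). Capitals mark the letters TGACG or their reverse complement, the core of the cyclic AMP response element that CREB binds.
CREBBP: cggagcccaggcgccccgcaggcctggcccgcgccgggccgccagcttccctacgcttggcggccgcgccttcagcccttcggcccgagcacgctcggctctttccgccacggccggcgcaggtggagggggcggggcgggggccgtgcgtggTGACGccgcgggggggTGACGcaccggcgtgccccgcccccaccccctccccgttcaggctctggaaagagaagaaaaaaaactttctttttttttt
EP300: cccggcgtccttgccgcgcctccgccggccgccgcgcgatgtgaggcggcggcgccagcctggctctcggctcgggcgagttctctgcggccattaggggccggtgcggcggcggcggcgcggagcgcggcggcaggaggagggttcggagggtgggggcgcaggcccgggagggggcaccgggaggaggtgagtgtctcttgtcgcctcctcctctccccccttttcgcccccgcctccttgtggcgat
CTNNB1: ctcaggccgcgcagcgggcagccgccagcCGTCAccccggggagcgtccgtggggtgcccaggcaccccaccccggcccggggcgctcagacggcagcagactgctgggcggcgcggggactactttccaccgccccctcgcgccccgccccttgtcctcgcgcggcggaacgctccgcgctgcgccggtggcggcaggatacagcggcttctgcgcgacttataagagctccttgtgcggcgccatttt
KAT2A: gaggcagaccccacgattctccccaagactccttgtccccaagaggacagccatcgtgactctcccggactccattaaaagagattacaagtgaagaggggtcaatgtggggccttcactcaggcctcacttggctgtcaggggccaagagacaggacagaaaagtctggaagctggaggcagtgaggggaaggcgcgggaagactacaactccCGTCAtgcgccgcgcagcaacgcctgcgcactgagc
The core began 97 and 81 bases before the start site of CREBBP, 221 before that of CTNNB1 and 36 before that of KAT2A. The EP300 window held none. Of the 14 windows listed for the 10 genes, 4 held the core, against 21.2% of all 35116 windows of this length. The core was added to the search after the windows were seen, so this count is a description alone. The TCF/LEF core CTTTGA (11.2% of all windows), the whole element TGACGTCA (1.65%), which holds the core on both strands, and the C/EBP-ATF element TGATGNAAT (0.888%) were searched on both strands and matched 0 of the 14. These are matches of letters in 1 window and say nothing of binding.

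The main question was whether ICG-001 changed the transcripts of its own target and of the target's partners. KAT2A rose at 48 h and in the mean of both times. A dim CTNNB1 probe, not detected on any DMSO array, and a CREBBP probe near background were also called higher. The brightest probes of CREBBP, EP300 and CTNNB1 were not called at either time. At 24 h, 1 of the 11 member probes was higher in ICG-001 cells and 0 were lower at an adjusted p below 0.05 (limma, Benjamini-Hochberg over all 22158 probes, two-sided), where 17.1% of all probes were called (8.8% higher and 8.32% lower). At 48 h, 3 were higher and 0 lower, where 18.7% of all probes were called (9.44% higher and 9.25% lower). In the mean of the 24 h and 48 h effects, 3 were higher and 0 lower, where 33.2% were called. The probe called at 24 h, and 1 of the 3 called at 48 h, is the dim CTNNB1 probe ILMN_1651617, which passed the filter only through the ICG-001 arrays. With 11 probes of 8 genes, nothing about the set as a whole is read from these shares. The median log2 change of the 11 probes was 0.18 at 24 h and -0.16 at 48 h, against -0.02 and -0.02 for all probes. Replicates of ICG-001 and DMSO did not overlap for 5 member probes at 24 h (45.5% of all probes) and for 6 at 48 h (49.1%).

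**Figure D1:**
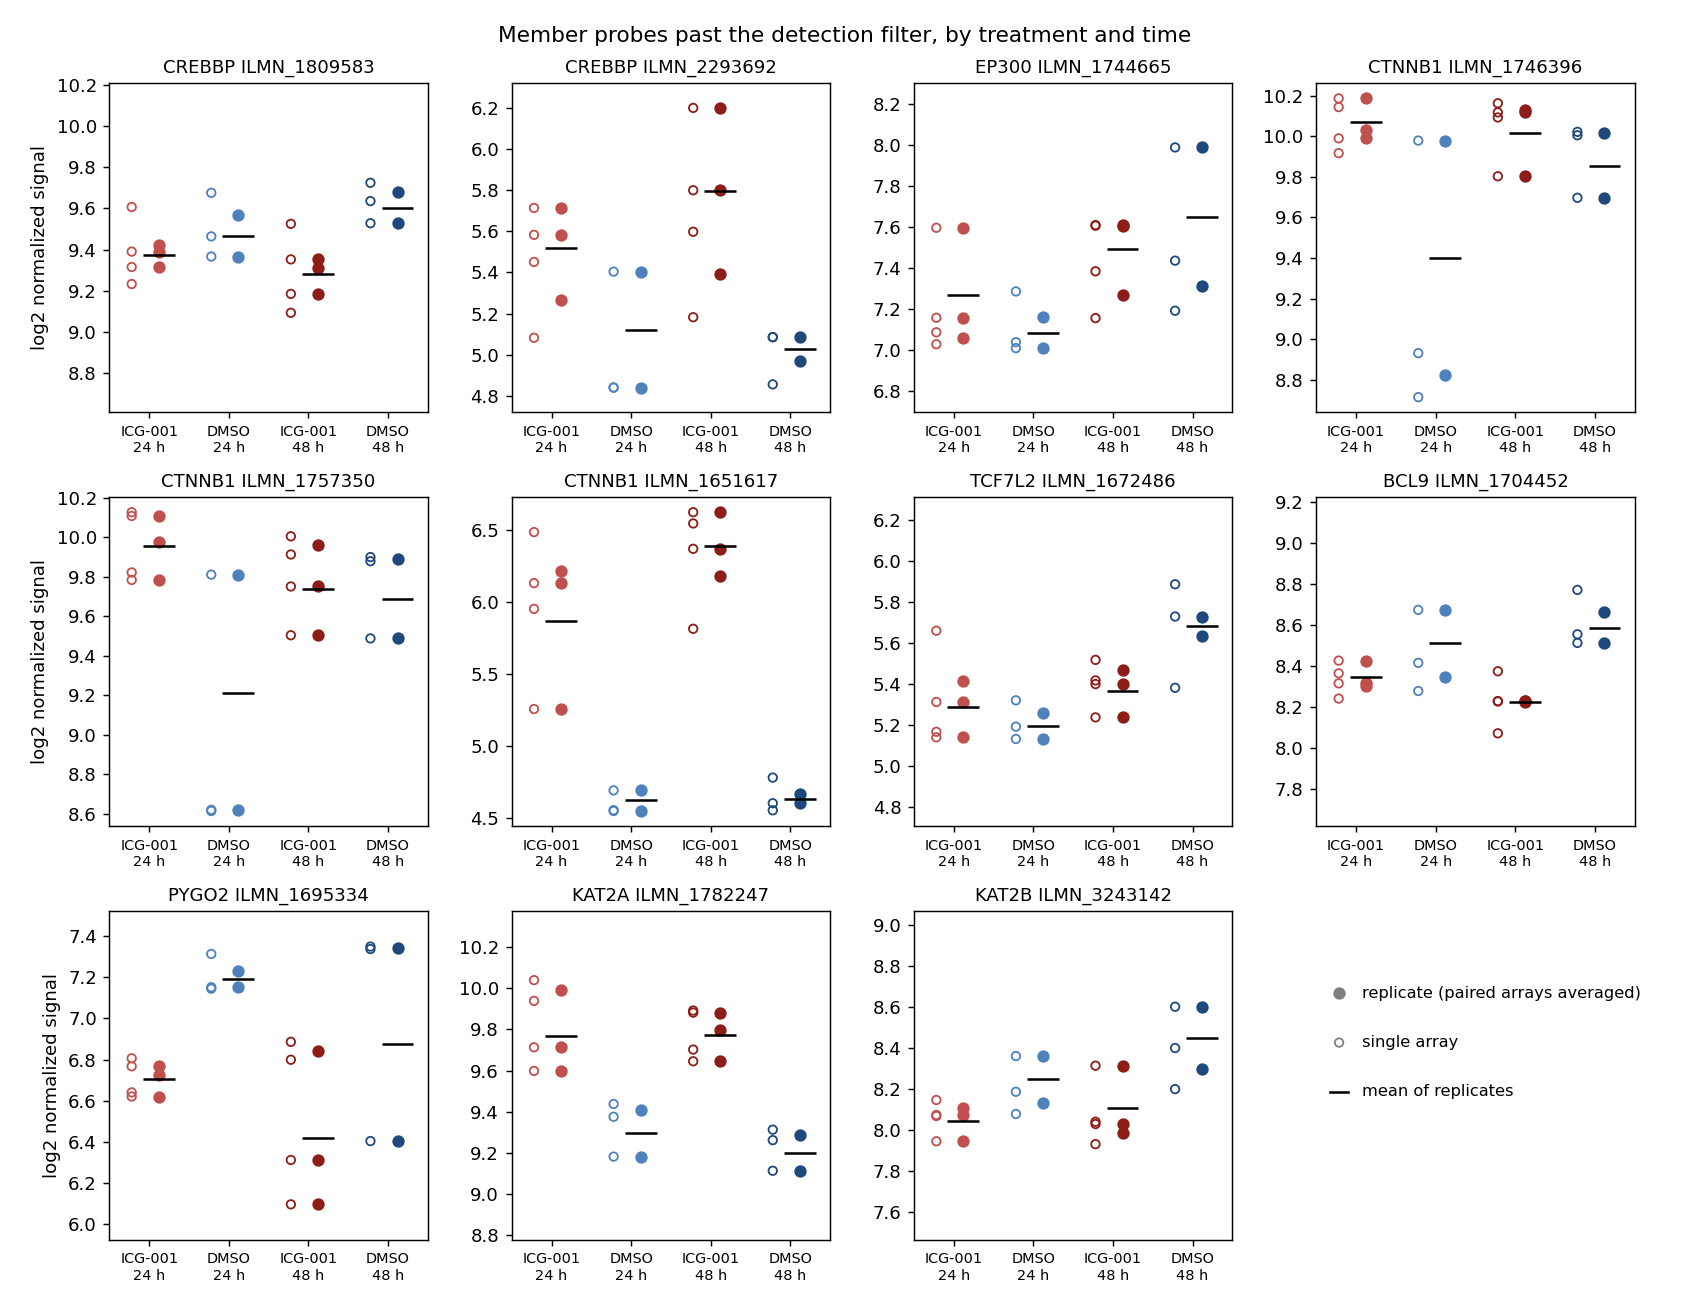
Log2 normalized signal of the 11 member probes past the detection filter (y axis; each panel has its own range, at least 1.6 log2 units) in ICG-001 and DMSO cells at 24 h and 48 h (x axis). Filled points are replicates, open points single arrays and lines the means of replicates. KAT2A and CTNNB1 probe ILMN_1651617 lie higher in every ICG-001 replicate than in any DMSO replicate of their time, while both bright CTNNB1 probes show 1 DMSO replicate at 24 h more than 1 log2 unit below the other.

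CREBBP encodes CBP, the CREB-binding protein, the known ligand partner of ICG-001. Its bright probe, ILMN_1809583, was detected on all 14 arrays. At 24 h it had log2 signals of 9.42, 9.32 and 9.39 in ICG-001 replicates, against 9.37 and 9.57 in DMSO replicates. The groups overlapped, and the log2 change was -0.09 ± 0.13 (SE; adjusted p = 0.68). At 48 h it had 9.35, 9.18 and 9.31 in ICG-001 replicates, against 9.68 and 9.53 in DMSO replicates. All 3 ICG-001 replicates lay below both DMSO replicates, by a log2 change of -0.32 ± 0.13 (95% interval -0.61 to -0.04) that was not called (adjusted p = 0.109). The same fit on the authors' table gave -0.26 and called it (adjusted p = 0.0233), as it did the mean of the 24 h and 48 h effects (-0.17, adjusted p = 0.0233), with no call at 24 h (-0.08, adjusted p = 0.528). The interval at 24 h ran from -0.38 to 0.19, so a change of this CREBBP probe in either direction was not shown to be absent at 24 h.

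The other CREBBP probe, ILMN_2293692, was near background. It was detected on 3 of 4 ICG-001 arrays and 1 of 3 DMSO arrays at 24 h, and on 3 of 4 ICG-001 arrays and 2 of 3 DMSO arrays at 48 h. At a detection p below 0.01 it was detected at 48 h on 3 of 4 ICG-001 arrays and 0 of 3 DMSO arrays. At 48 h it had log2 signals of 5.80, 6.20 and 5.39 in ICG-001 replicates, against 4.97 and 5.09 in DMSO replicates, with a fitted log2 change of 0.77 ± 0.24 (SE; adjusted p = 0.0476), just under the threshold. Its deposited signals overlapped, with 138.1 to 154.7 on ICG-001 arrays and 134.7 to 149.7 on DMSO arrays, while the median signal of the arrays was lower with ICG-001 (113.1 to 129.3) than with DMSO (131.1 to 139.1). The call held in 9 of 20 other settings that gave a p, and in the authors' own table the change was 0.18 (adjusted p = 0.0974). At 24 h its change was 0.40 ± 0.24 (adjusted p = 0.292). Over the 10 replicates the 2 CREBBP probes ran in opposite directions (Pearson r = -0.874, a description over replicates that share their groups).

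EP300 encodes p300, the paralogue of CBP that shares most of its domains and partners. At 24 h its probe, ILMN_1744665, had log2 signals of 7.06, 7.16 and 7.60 in ICG-001 replicates, against 7.01 and 7.16 in DMSO replicates. The EP300 signals at 48 h were 7.61, 7.61 and 7.27 in ICG-001 replicates, against 7.31 and 7.99 in DMSO replicates. The groups overlapped at both times. The log2 change was 0.18 ± 0.22 at 24 h and -0.16 ± 0.22 at 48 h (adjusted p = 0.626 and 0.68), with 95% intervals of -0.30 to 0.67 and -0.64 to 0.33. The EP300 probe was higher in both DMSO replicates at 48 h than at 24 h, by 0.56 ± 0.24, which was not called (adjusted p = 0.747). Single DMSO arrays overlapped, with 7.192 on the lowest at 48 h and 7.286 on the highest at 24 h. The 2 DMSO replicates at 48 h lay 0.67 apart, a gap that 4.08% of all probes reached.

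CTNNB1 encodes beta-catenin. Its 2 bright probes, ILMN_1746396 and ILMN_1757350, were detected on all 14 arrays and followed each other closely over the 10 replicates (Pearson r = 0.976). At 24 h the first had log2 signals of 10.03, 9.99 and 10.19 in ICG-001 replicates, against 9.98 and 8.82 in DMSO replicates. The second had 9.98, 9.78 and 10.11 in ICG-001 replicates, against 9.81 and 8.62 in DMSO replicates. For both probes the ICG-001 replicates lay together with DMSO replicate 1, and DMSO replicate 2-3, the mean of a pair of arrays, stood apart below them.

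The gap between the DMSO replicates at 24 h was 1.16 for ILMN_1746396 and 1.19 for ILMN_1757350, and 1.1% and 0.957% of all probes had a gap as large. Both arrays of the low pair showed it, with 8.93 and 8.71 for the first probe and 8.61 and 8.62 for the second. The changes at 24 h were 0.67 ± 0.27 and 0.74 ± 0.29 (adjusted p = 0.119 and 0.107), so neither probe was called. Both were called with every array as a replicate (0.85 and 0.94, adjusted p = 0.0152 and 0.0126) and with the title number as a random block and the b arrays as a term (0.74 and 0.83, adjusted p = 0.0447 and 0.0348). Without DMSO replicate 1 they were 1.25 and 1.34 (adjusted p = 0.00576 and 0.00747), and without DMSO replicate 2-3 they were 0.09 and 0.14 (adjusted p = 0.814 and 0.737). The value for beta-catenin at 24 h thus rested on which DMSO replicate it was set against.

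At 48 h the DMSO replicates were closer together. ILMN_1746396 had 9.80, 10.12 and 10.13 in ICG-001 replicates, against 10.01 and 9.70 in DMSO replicates. ILMN_1757350 had 9.50, 9.75 and 9.96 in ICG-001 replicates, against 9.89 and 9.49 in DMSO replicates. The groups overlapped for both CTNNB1 probes, with changes of 0.16 ± 0.27 and 0.05 ± 0.29 (adjusted p = 0.737 and 0.929). The 95% intervals, -0.44 to 0.76 and -0.59 to 0.69, leave room for a change in either direction.

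A dimmer CTNNB1 probe, ILMN_1651617, behaved otherwise. It was detected on all 8 ICG-001 arrays and on 0 of 6 DMSO arrays, and it passed the filter only through the ICG-001 arrays. At 24 h its deposited signal was 158.9, 194.1, 130.9 and 154.4 on ICG-001 arrays, against 122.8, 122.7 and 117.7 on DMSO arrays. At 48 h it was 170.6, 147.9, 164.1 and 190.6 on ICG-001 arrays, against 125.4, 131.3 and 123 on DMSO arrays. Every ICG-001 array lay above every DMSO array of its time in signal before any normalization, although the ICG-001 arrays had the lower median signals.

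The DMSO arrays did not measure ILMN_1651617. Its fold is a bound, set against the lowest normalized signal with a detection p below 0.05 on each DMSO array. For this processing, and taking the mean of the ICG-001 replicates as exact, the bound was 1.66-fold at 24 h and 2.48-fold at 48 h. The adjusted p-values, 0.00824 and 0.00139 (limma), belong to the fitted changes from undetected DMSO values and not to the bound. Fitted log2 changes were 0.67 and 1.01 with an offset of 50, and 0.31 and 0.45 with the authors' table. These lie below the bound, which therefore holds for this processing alone. Since this CTNNB1 probe entered the test through the group where it is high, its calls are a description and support nothing further. With no detection filter, so that every probe was tested, the adjusted p was 0.0203 at 24 h and 0.00397 at 48 h. Those values rest on the same undetected DMSO signals and lend the calls no support. Log2 signals averaged 5.87 ± 0.53 in ICG-001 cells (SD, n = 3) and 4.62 ± 0.10 in DMSO cells (SD, n = 2) at 24 h, and 6.39 ± 0.22 in ICG-001 cells and 4.64 ± 0.05 in DMSO cells at 48 h. The 24 h call was lost without DMSO replicate 2-3 (adjusted p = 0.0582). Among the 4 arrays ending in b alone, 1 a group and so with no test, normalized values differed by 1.93 at 24 h and 1.76 at 48 h. The DMSO arrays among them did not detect the probe. This CTNNB1 probe correlated with the bright probe ILMN_1746396 at r = 0.505 over the 10 replicates, and the files used here do not say which part of the transcript it reads.

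The fourth CTNNB1 probe, ILMN_1785786, had signals of 104 to 138.2 and was detected on 1 of 14 arrays, ICG-001 replicate 3 at 24 h, so it was not tested. Its signals overlapped between ICG-001 and DMSO at both times.

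**Figure D2:**
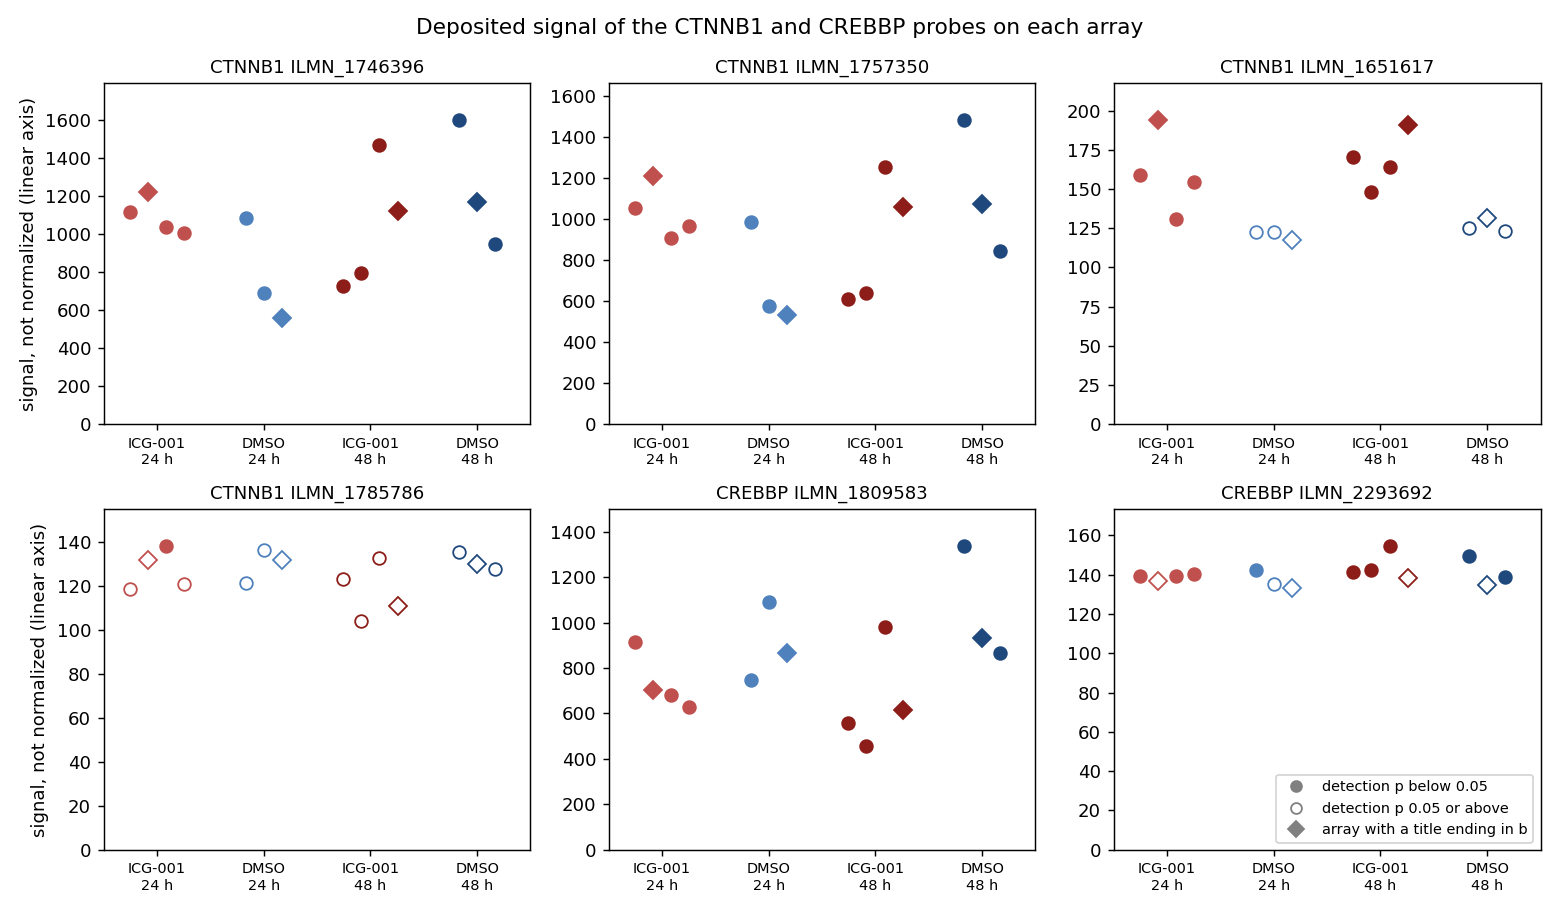
Deposited signal, not normalized (y axis, linear and starting at 0), of the 4 CTNNB1 and 2 CREBBP probes on each array of the 4 groups (x axis); filled marks have a detection p-value below 0.05, and diamonds are arrays with titles ending in b. For CTNNB1 ILMN_1651617 all 8 ICG-001 arrays are filled at 130.9 to 194.1 and lie above the open DMSO marks of their own time, which run from 117.7 to 131.3 over both times.

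**Figure D3:**
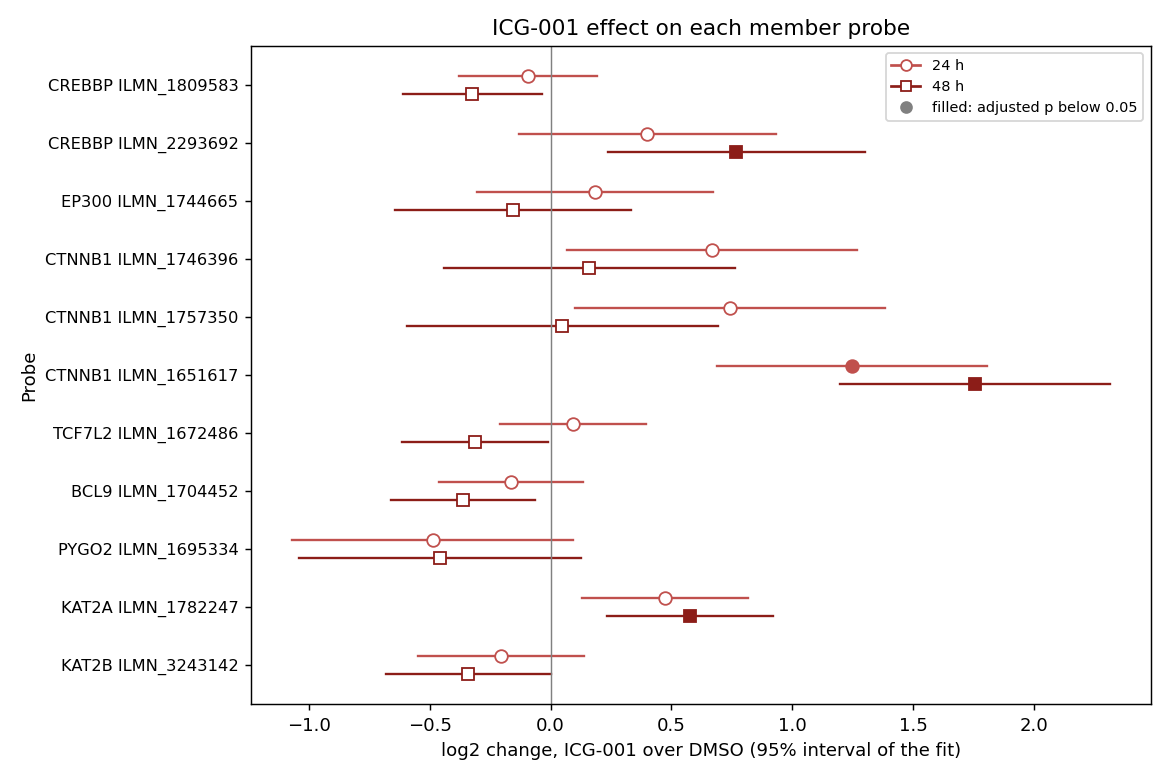
Log2 change of each member probe with ICG-001 over DMSO (x axis) at 24 h (circles) and 48 h (squares), with the 95% interval of the fit as lines; filled marks have an adjusted p below 0.05. At 24 h 1 mark is filled, CTNNB1 ILMN_1651617, and at 48 h 3 are, with KAT2A and CREBBP ILMN_2293692.

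TCF7L2 encodes TCF4, a DNA-binding partner of beta-catenin. Its probe, ILMN_1672486, was dim and was detected on 12 of 14 arrays. At 24 h it had log2 signals of 5.41, 5.31 and 5.14 in ICG-001 replicates, against 5.13 and 5.26 in DMSO replicates (change 0.09 ± 0.14, adjusted p = 0.694). The signals of TCF7L2 at 48 h were 5.24, 5.40 and 5.47 in ICG-001 replicates, against 5.63 and 5.73 in DMSO replicates (change -0.31 ± 0.14, adjusted p = 0.138). The groups overlapped at 24 h, and at 48 h all 3 ICG-001 replicates lay below both DMSO replicates without reaching the threshold. Single arrays overlapped at 48 h, with 5.381 on the lowest DMSO array and up to 5.517 on ICG-001 arrays. Among the arrays ending in b alone, the TCF7L2 change at 48 h was 0.04. The DMSO replicates of TCF7L2 at 48 h also lay above those at 24 h, by 0.49 ± 0.15, a difference not called after adjustment (adjusted p = 0.728).

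BCL9 is the adaptor that links beta-catenin to PYGO proteins. Its probe, ILMN_1704452, had log2 signals of 8.30, 8.43 and 8.32 in ICG-001 replicates at 24 h, against 8.67 and 8.35 in DMSO replicates. For BCL9 at 48 h they were 8.23, 8.23 and 8.22 in ICG-001 replicates, against 8.66 and 8.51 in DMSO replicates. The 3 ICG-001 replicates at 48 h lay below both DMSO replicates. Their near equality came partly from averaging, since the arrays of replicate 3-4 had 8.375 and 8.073. Single ICG-001 arrays at 48 h, at 8.375 or below, also lay under every DMSO array of that time, the lowest at 8.513. The change of BCL9 was -0.16 ± 0.14 at 24 h (adjusted p = 0.459) and -0.36 ± 0.14 at 48 h (adjusted p = 0.0882). The 48 h fall passed in 3 of 22 other settings. These were the authors' table (-0.24, adjusted p = 0.0326), the stricter filter (0.0437) and every array as a replicate (0.0308). The mean of the 24 h and 48 h effects, -0.26 ± 0.10, was not called (adjusted p = 0.057) and passed in 8 of 21 other settings.

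PYGO2 reads methylated histone tails and completes the complex with BCL9. Its probe, ILMN_1695334, had log2 signals of 6.72, 6.77 and 6.62 in ICG-001 replicates at 24 h, against 7.15 and 7.23 in DMSO replicates. At 48 h it had 6.31, 6.10 and 6.84 in ICG-001 replicates, against 7.34 and 6.40 in DMSO replicates. The groups were apart at 24 h and overlapped at 48 h, where the DMSO replicates differed by 0.94, a gap that 0.979% of all probes reached. The change of PYGO2 was -0.49 ± 0.26 at 24 h and -0.46 ± 0.26 at 48 h (adjusted p = 0.238 and 0.261). Its mean change, -0.47 ± 0.19, was not called (adjusted p = 0.0754), and without DMSO replicate 3 at 48 h it was -0.71 (adjusted p = 0.0103).

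KAT2A, also known as GCN5, is the acetyltransferase of the SAGA and ATAC coactivator complexes, and it rose with ICG-001. Its probe, ILMN_1782247, had log2 signals of 9.99, 9.60 and 9.71 in ICG-001 replicates at 24 h, against 9.18 and 9.41 in DMSO replicates. KAT2A had, at 48 h, 9.88, 9.65 and 9.80 in ICG-001 replicates, against 9.29 and 9.11 in DMSO replicates. Every ICG-001 replicate lay above every DMSO replicate in normalized signal, within and across the 2 times. Deposited KAT2A signals, before normalization, overlapped at both times. They were 758.8 to 1146 on ICG-001 arrays and 674.5 to 935.3 on DMSO arrays at 24 h. At 48 h they were 595.6 to 1231 on ICG-001 arrays and 674.9 to 997.9 on DMSO arrays.

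The change of KAT2A was 0.47 ± 0.16 at 24 h (adjusted p = 0.0593, not called) and 0.58 ± 0.16 at 48 h (1.49-fold, 95% interval 0.23 to 0.92, adjusted p = 0.0264). The mean of the 2 effects was 0.52 ± 0.11 (1.44-fold, adjusted p = 0.00409) and was called in all 21 other settings that gave a p. The 48 h call was kept in 18 of 22 settings and lost without DMSO replicate 1-2 (adjusted p = 0.0765), DMSO replicate 3 (0.168), ICG-001 replicate 1 (0.0828) or ICG-001 replicate 3-4 (0.0592), with changes of 0.49 to 0.66. Among settings that leave out a 48 h replicate, only that without ICG-001 replicate 2 kept the call. Leaving out a 24 h replicate could not alter the 48 h change itself. Among the arrays ending in b alone, the KAT2A change was 0.67 at 24 h and 0.39 at 48 h.

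KAT2B, also known as PCAF for p300/CBP-associated factor, is the paralogue of KAT2A. Its probe, ILMN_3243142, had log2 signals of 8.11, 7.95 and 8.07 in ICG-001 replicates at 24 h, against 8.36 and 8.13 in DMSO replicates. The KAT2B signals at 48 h were 8.03, 8.31 and 7.99 in ICG-001 replicates, against 8.30 and 8.60 in DMSO replicates. The ICG-001 replicates lay below both DMSO replicates at 24 h and overlapped them at 48 h. Single arrays overlapped at 24 h too, with 8.078 on the lowest DMSO array and 8.146 on the highest ICG-001 array. Among the arrays ending in b alone, the KAT2B change at 24 h was -0.01. The change of KAT2B was -0.20 ± 0.16 at 24 h and -0.34 ± 0.16 at 48 h (adjusted p = 0.409 and 0.155). Their mean, -0.27 ± 0.11, was not called (adjusted p = 0.0799), and passed in 6 of 21 other settings, among them the random block (adjusted p = 0.0351). The difference between KAT2A and KAT2B itself was not tested, and over the 10 replicates they had r = -0.76.

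The members were also followed in time. The change between 24 h and 48 h in the ICG-001 effect was not called for any of the 11 probes (limma; 0 at an unadjusted p below 0.05), and for 0% of all probes, of which 1118 had an unadjusted p below 0.05. The largest of these differences among members, -0.69 ± 0.41 for CTNNB1 ILMN_1757350, had an adjusted p of 0.968. In ICG-001 cells 0 of the 11 probes were called at 48 h against 24 h, with 1 at an unadjusted p below 0.05, CTNNB1 ILMN_1651617 (0.52 ± 0.23, adjusted p = 0.51), and 0.0135% of all probes were called (0.00451% higher and 0.00903% lower). BCL9 alone did not overlap between the times as replicates, where 15.6% of all probes did not. Its single ICG-001 arrays did overlap, with 8.242 to 8.427 at 24 h and 8.073 to 8.375 at 48 h. In DMSO cells 0 were called, with 2 at an unadjusted p below 0.05, EP300 and TCF7L2, and 0.00903% of all probes were called. Those 2 were also the members whose DMSO replicates did not overlap between the times, where 33.6% of all probes did not. The 24 h and 48 h effects could therefore not be told apart for any member at this number of arrays.

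Among probes of other genes, the 3 with the profile most like that of each central gene over the 10 replicates were KLF13 (Pearson r = 0.942), MTMR3 (0.931) and PSMB10 (0.918) for the bright CREBBP probe. They were CHRNE (0.931), NFKBIZ (0.93) and CCDC14 (0.913) for EP300, and ZFX (0.95), BCL2L13 (0.945) and SEH1L (0.944) for CTNNB1 ILMN_1746396. These are the highest of 15662 to 15664 correlations for each gene and carry no p.

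The rest of the pathway was described with 7 gene lists, each gene by its brightest probe. Their counts stand beside shares of all probes of 8.8% higher and 8.32% lower at 24 h and 9.44% higher and 9.25% lower at 48 h, and with so few genes a list nothing particular to a list is read from them. In the destruction complex, which degrades beta-catenin, 2 of 8 tested genes rose at 24 h and 2 at 48 h, and 0 fell (3 and 2 of 12 probes). CSNK1A1, the kinase that primes beta-catenin, was 1.92-fold higher at 24 h and 2.19-fold higher at 48 h (adjusted p = 0.00452 and 0.00165). AXIN2, a scaffold that is also a Wnt target, was 1.49-fold higher at 24 h (adjusted p = 0.0384), and AMER1, which binds APC, was 1.41-fold higher at 48 h (adjusted p = 0.039). The median log2 change of the list was 0.27 at 24 h and 0.36 at 48 h.

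Of 17 tested receptors and relay genes, 3 rose and 0 fell at 24 h, and 3 rose and 1 fell at 48 h, with medians of 0.17 and 0.13. Among the frizzled receptors, which bind Wnt ligands, FZD6 was 1.74-fold higher at 24 h and FZD9 1.72-fold higher at 48 h (adjusted p = 0.00535 and 0.0173). FZD4 was 1.92-fold higher at 24 h and 1.52-fold higher at 48 h (adjusted p = 0.00643 and 0.0381). FZD2 was 1.59-fold lower at 48 h (adjusted p = 0.00866).

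Of 25 nuclear partners, 6 rose and 1 fell at 24 h, and 7 rose and 1 fell at 48 h, with medians of 0.12 and -0.03. Over all 34 probes of these genes, 6 were higher and 3 lower at 24 h, and 7 higher and 4 lower at 48 h. TLE4, a Groucho corepressor that binds TCF, was 1.95-fold higher at 24 h and 1.89-fold higher at 48 h (adjusted p = 0.0133 and 0.0149). TBL1X, a subunit of the NCoR corepressor complex that also binds beta-catenin, was 1.84-fold and 2.34-fold higher (adjusted p = 0.00975 and 0.00175). TLE5, a short member of the Groucho family, fell 1.84-fold at 24 h and 1.64-fold at 48 h (adjusted p = 0.00185 and 0.0044), and NLK, a kinase that phosphorylates TCF proteins, was 1.51-fold and 1.6-fold higher (adjusted p = 0.0153 and 0.0079).

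LEF1, the TCF family member in this list and a beta-catenin target, was 1.61-fold higher at 24 h and 1.62-fold higher at 48 h (adjusted p = 0.0353 and 0.0327). Of 8 tested direct targets of beta-catenin and TCF, 5 rose at 24 h and 3 at 48 h, and 0 fell at either time. The medians were 0.59 and 0.43. For all probes the median was -0.02 at both times, and with 1 probe a gene it was 0.02 at 24 h and 0.015 at 48 h. Over the 11 probes of these targets, 6 were higher at 24 h and 4 at 48 h, where 8.8% and 9.44% of all probes were higher. The list was chosen with earlier results of these data known. TNFRSF19, also called TROY, a member of the TNF receptor superfamily, was 3.97-fold higher at 24 h and 4.47-fold higher at 48 h (adjusted p = 4.89e-05 and 1.53e-05). MYC, a transcription factor of cell growth, was 2.08-fold higher at 24 h (adjusted p = 0.00752). DKK1, a secreted Wnt inhibitor, was 1.89-fold higher at 48 h (adjusted p = 0.029). Of the genes listed, tested or not, LEF1, AXIN2, ZNRF3, RNF43 and LGR5 stand in 2 lists each, so the counts of the lists overlap.

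**Figure D4:**
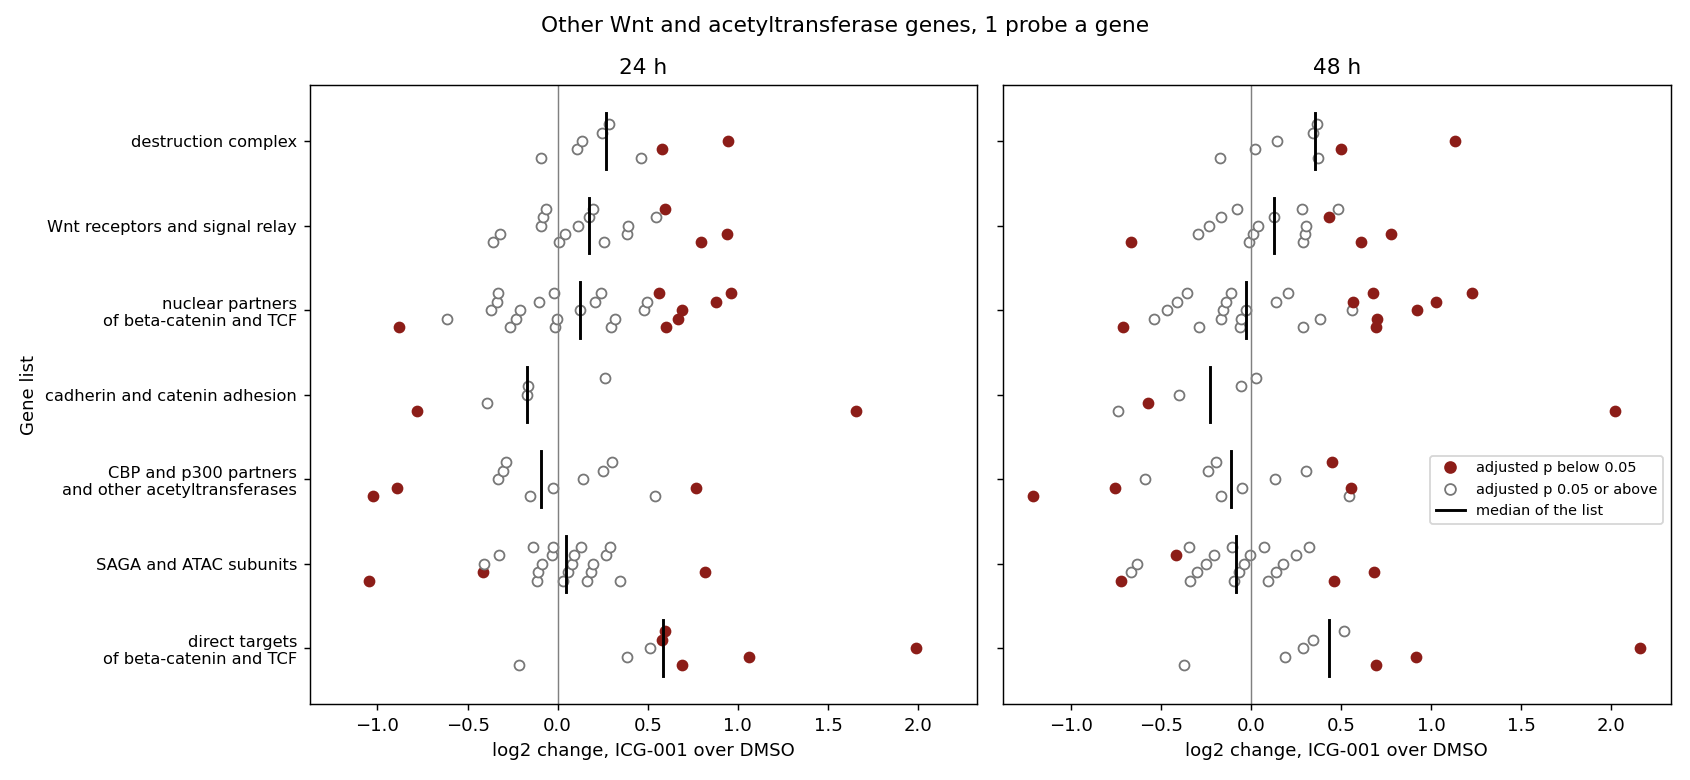
Log2 change with ICG-001 over DMSO (x axis) at 24 h (left) and 48 h (right) for every tested gene of 7 lists (y axis), 1 point a gene; filled points have an adjusted p below 0.05 and black lines are list medians, while the vertical spread within a list has no meaning. The direct targets have the highest medians, 0.59 and 0.43, and CDH2 and TNFRSF19 are the points farthest to the right.

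Of 6 tested cadherin and catenin genes, 1 rose and 1 fell at each time, with medians of -0.17 and -0.23. CDH2, the N-cadherin that holds beta-catenin at the membrane, was 3.15-fold higher at 24 h and 4.06-fold higher at 48 h (adjusted p = 0.000474 and 0.000114). CDH1, the E-cadherin, fell 1.72-fold at 24 h (adjusted p = 0.0453), and CDH3, the P-cadherin, fell 1.49-fold at 48 h (adjusted p = 0.0299).

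Of 12 tested CBP and p300 partners and other acetyltransferases, 1 rose and 2 fell at 24 h, and 2 rose and 2 fell at 48 h, with medians of -0.09 and -0.11. CITED1, which binds CBP and p300, fell 2.04-fold at 24 h and 2.31-fold at 48 h (adjusted p = 0.00208 and 0.000772). Its relative CITED2 was 1.7-fold higher at 24 h (adjusted p = 0.0241). The CREB coactivators CRTC2 and CRTC1 fell, 1.85-fold at 24 h and 1.69-fold at 48 h (adjusted p = 0.0114 and 0.0151).

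Of 22 tested SAGA and ATAC subunits, the complexes that KAT2A and KAT2B serve, 1 rose and 2 fell at 24 h, and 2 rose and 2 fell at 48 h, with medians of 0.04 and -0.08. TRRAP, the scaffold that activators contact, was 1.77-fold higher at 24 h and 1.38-fold higher at 48 h (adjusted p = 0.00384 and 0.043). ATXN7L3, of the deubiquitinase module, fell 2.06-fold and 1.65-fold (adjusted p = 0.00148 and 0.0071), and ENY2, of the same module, fell 1.33-fold at both times (adjusted p = 0.0454 and 0.0411). SGF29, a reader of methylated histones, was 1.61-fold higher at 48 h (adjusted p = 0.0327).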

How the data were processed

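Per the file headers, the deposited non-normalized table holds the intensity and the detection p-value of 47323 probes on 14 arrays. A second table of the authors holds 22579 of these probes as values close to log2, with every array brought to 1 distribution. The submitters' processing notes name the package lumi. Its version, its settings and the making of that table were not given in the sources used here. In R 4.3.3, neqc of limma 3.58.1 took the background from the detection p-values, added an offset of 16, applied quantile normalization and gave log2 values. Probes detected at p below 0.05 on 3 arrays were kept. Precision is limited by the number of arrays.

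Probes were named from the platform annotation, with symbols updated through a RefSeq table of GRCh38.p14: 1 symbol for 16545 probes, several for 3, and no entry for 6031 of the authors' probes. Probes outside the authors' table had no name. Upstream windows came from RefSeq, and the core TGACG was added to the motifs after the windows were seen. Arrays with a shared title number were averaged. A means model of the 4 groups was fitted with lmFit and eBayes (residual degrees of freedom 6, prior 4.98), with 6 contrasts, and p-values were adjusted by Benjamini-Hochberg over 22158 probes, threshold 0.05, two-sided. Every member probe is named whatever its result. Like profiles are the 3 highest Pearson correlations, and at most 4 genes of a list were named by smallest p at a time, beside genes named under another list. The members and lists were chosen with earlier results of these data known. The fit was tested on simulated data. Alternatives were plain background subtraction, an offset of 50, scaling to the 75th percentile, the authors' table, no filter or a stricter filter (detection p below 0.01), every array as a replicate, the title number as a random block with the b arrays as a term, leaving out the b arrays or using them alone, array weights, only the 2 groups compared, 1 probe a gene, and leaving out each replicate.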

Additional observations from a re-analysis of the deposited data

How the results depend on the processing

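No member value that was called, under any setting, changed direction. Of 1466 values of member probes under other settings, 1369 kept their side of the threshold (or, with no test, moved by less than the replicate SD), 20 lost a call, 41 gained one, and 36, all from the arrays ending in b alone and without a test, moved by more than the replicate SD. Member probes called at 24 h, 1 in the report, were 2 with an offset of 50, with the authors' table and with the stricter filter, 4 with every array as a replicate and 4 with the title number as a random block, and 0 to 3 when a replicate was left out (0 without DMSO replicate 2-3, 3 without DMSO replicate 1). At 48 h, 3 became 4 with the authors' table and with every array as a replicate. They became 2 with plain background subtraction, no filter or only the 2 groups compared, and 1 with 1 probe a gene. With the authors' table, CREBBP ILMN_1809583 and BCL9 were called lower (-0.26 and -0.24), and CTNNB1 ILMN_1651617 and KAT2A higher. The count was 1 or 2 when an ICG-001 replicate was left out (1 without ICG-001 replicate 1 at 48 h). Leaving out a DMSO replicate at 48 h left 1 there, so that count is not given. In the mean effect, 3 became 6 with an offset of 50, 5 with 75th percentile scaling, the authors' table, the stricter filter and the random block, 7 with every array as a replicate, and 2 to 5 when a replicate was left out (5 without DMSO replicate 1 at 24 h). Of all probes, 3794 were called at 24 h, 2340 with only the 2 groups compared and 1885 to 3521 when a replicate was left out. At 48 h, 4140 were called and 1643 to 4644 when a replicate was left out. In the mean effect, 7355 were called and 4871 with 1 probe a gene, where fewer probes were tested. The difference of the effects was called for 0 probes and for 0 to 4 when a replicate was left out. DMSO over time was called for 2 probes, for 0 with plain background subtraction, no filter, no b arrays, array weights or only 2 groups, for 7 with an offset of 50 or the authors' table, 5 with the stricter filter, 16 with every array, 6 with the random block, 4 with 1 probe a gene, and 0 to 82 when a replicate was left out (82 without DMSO replicate 1 at 24 h). ICG-001 over time was called for 3 probes, for 0 with plain background subtraction, no b arrays or only 2 groups, for 63 with an offset of 50, 83 with the authors' table, 5 with no filter, 42 with the stricter filter, 56 with every array, 39 with the random block, 23 with array weights, 17 with 1 probe a gene, and 0 to 1 when a replicate was left out. The causes of these changes were not tested, beyond fewer samples or probes where a setting removes them. No paired analysis was possible because groups share none of the numbers given in array titles. Signals near background limit the dim probes of CREBBP, CTNNB1 and TCF7L2.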
